A study of Mus musculus with 24 samples.

Results

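Both mature strands of miR-202, mmu-miR-202-5p and mmu-miR-202-3p, were followed in small RNA libraries from purified mouse male germ cells. They are 2 of the 1978 mature miRNAs in the table of raw counts, and were chosen by name as the products of a gonad-enriched hairpin, with the higher level of miR-202-5p in Ago413-/- round spermatids already known. Differences among the round spermatid groups, and between the cell types of Ago413+/+ and of Ago413-/- mice, use that contrast or its control libraries and are described without a test. Tests of miR-202 are given for the spermatocyte libraries and for the cell types of Ago413+/- mice. Marker and let-7 miRNAs were tested in round spermatids too. The marker lists and comparisons were chosen with earlier results of these data known, so those calls are no independent evidence.

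The 24 libraries fall into 6 groups of 4, from pachytene/diplotene spermatocytes (SP) and round spermatids (RS) of Ago413+/+, Ago413+/- and Ago413-/- males. Ago413-/- mice carry a constitutive deletion, in every cell, of Argonaute genes that lie in tandem, complete for Ago1 and partial for Ago3 and Ago4. Ago413+/- mice carry 1 such copy, and the Argonaute gene Ago2 was not targeted in any group. The line was backcrossed onto C57BL/6J, and each library pooled testes of 2 to 5 mice aged 10 to 15 weeks, sorted by sedimentation through albumin to a purity of at least 70%. Somatic cells of the testis can make up part of the remainder. Fewer cells of a type and less of an RNA in each cell cannot be told apart in such fractions. The deleted genes give no miRNA count, so these libraries hold no check of the genotype labels.

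Argonaute proteins hold mature miRNAs and are guided by them to partly complementary messenger RNAs. A hairpin precursor is cut by Drosha and Dicer into a duplex of 2 arms, one of which is usually kept in Argonaute while the other is degraded. The seed, bases 2 to 8 of the mature strand, carries most of the target recognition. miR-202 is known as a miRNA of the gonads, with expression in Sertoli cells of the developing testis and in spermatogenic cells. Its 3p strand is classed with the let-7 family because of bases 2 to 7 of its seed.

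The mature strands are shown because their letters differ in the properties on which the later comparisons turn, the seed and the content of G and C. Capitals mark the seed, bases 2 to 8. The sequences are those of RefSeq for GRCm38.p6.
mmu-miR-202-5p: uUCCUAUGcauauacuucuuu
mmu-miR-202-3p: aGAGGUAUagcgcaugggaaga

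The 5p strand has 21 bases with a GC content of 28.6%, and the 3p strand has 22 bases with a GC content of 50%. The hairpin gene Mir202 lies at chr7:139957689-139957760 on the minus strand. Its hairpin of 72 bases follows with both mature arms in capitals.
Mir202 hairpin: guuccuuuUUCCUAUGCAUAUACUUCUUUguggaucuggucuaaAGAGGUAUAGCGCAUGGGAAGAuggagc

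The predicted fold of this hairpin pairs 18 of the 21 bases of the 5p arm with bases of the 3p arm, at a minimum free energy of -35.5 kcal per mol. In the GENCODE M21 annotation the hairpin overlaps an exon of the long noncoding RNA gene Gm2044 on the same strand, and it lies inside Gm16201, a processed transcript of the opposite strand, outside its exons. The nearest other hairpin is mmu-mir-7686, 67 bases away on the same strand. Its strands were almost absent, with 17 counts for miR-7686-3p and 6 for miR-7686-5p over all 24 libraries, against 79038 for miR-202-5p and 5087 for miR-202-3p.

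No other of the 1679 table entries with a RefSeq sequence had the miR-202-5p seed. Bases 2 to 7 of miR-202-3p were those of 12 other entries, 11 of them members of the let-7 family (the other was miR-1961), and over bases 2 to 8 the identity held for let-7j alone. The strands below are the 3p arm and the pair of let-7 members whose levels followed it most closely, with bases 2 to 7 in capitals.
mmu-miR-202-3p: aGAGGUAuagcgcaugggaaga
mmu-let-7b-5p: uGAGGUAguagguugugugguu
mmu-let-7e-5p: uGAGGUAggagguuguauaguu

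Compared from the same first base, miR-202-3p differed from the 11 let-7 members by 11 to 15 mismatches. From base 9 onwards let-7b-5p shared 2 of 14 positions with it.

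Total miRNA counts ranged from 182904 to 1072637 per library. The smallest total belonged to the second Ago413-/- spermatocyte library, which also stood apart in several measures below, so the main results that rest on it are also given without it. miR-202-5p was read 166 to 9260 times and miR-202-3p 48 to 716 times per library, so no value here rests on a count near 0. Levels are given as CPM, counts divided by the total of the library and set to one common total, after scaling by the trimmed mean of M values (TMM). Mature miRNAs are of similar length, and the 2 arms were compared without further scaling.

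miR-202-5p was among the abundant miRNAs in every library, and its highest levels were those of Ago413-/- round spermatids. Summed over the libraries it ranked 36 of 1978, and its rank within a library ran from 19 to 85. miR-202-3p ranked 132 when summed and 61 to 206 within libraries. miR-202-5p made up 0.0908% to 1.42% of a library's counts and miR-202-3p 0.0129% to 0.161%.

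In Ago413+/+ spermatocytes the level of miR-202-5p was 3194, 8309.5, 4169 and 3278 CPM in replicates 1 to 4. In Ago413+/- spermatocytes it was 8801, 5415, 2983 and 3565 CPM, and in Ago413-/- spermatocytes 8428, 1105, 4381 and 2399 CPM. The 3 spermatocyte groups covered nearly the same span, except for the second Ago413-/- library, which held the lowest level of all 24. In round spermatids the 4 values were 3991, 7513, 2226 and 3783 CPM for Ago413+/+ and 2649.6, 8173, 4523 and 4991 CPM for Ago413+/-. In Ago413-/- round spermatids they were 15394, 8645, 11654 and 10724 CPM. Each of these 4 libraries lay above every other round spermatid library and above every Ago413-/- spermatocyte library, but the lowest of them lay below the highest Ago413+/- spermatocyte library.

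**Figure D1:**
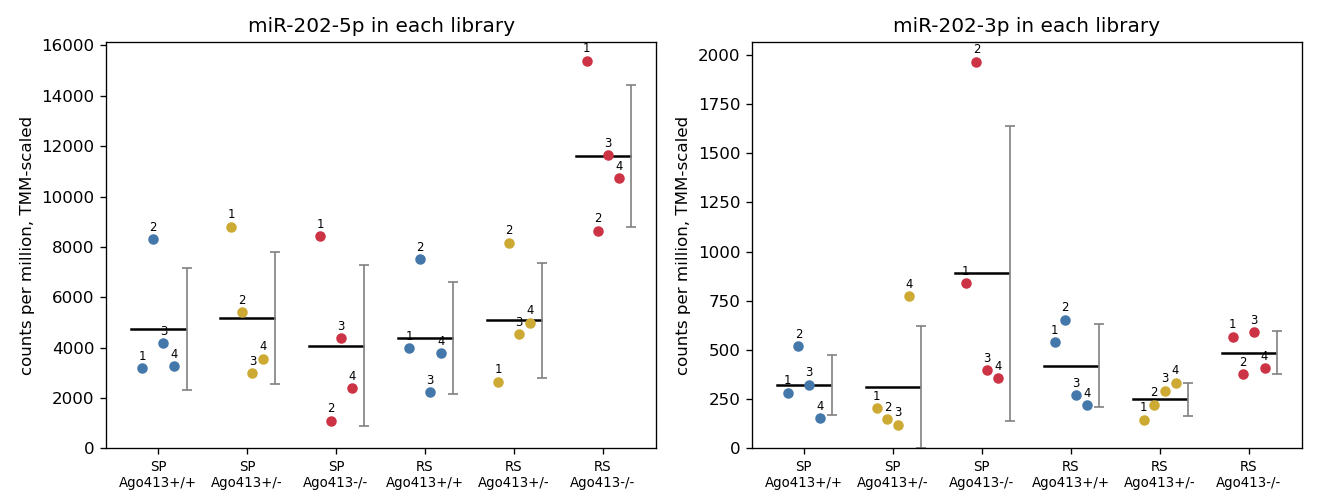
TMM-scaled CPM of miR-202-5p (left) and miR-202-3p (right) on linear axes from 0, one point per library with its replicate number, for spermatocytes (SP) and round spermatids (RS) of each genotype. Black lines are group means and grey bars are ± 1 SD (n = 4); the Ago413-/- round spermatids sit between 8645 and 15394 CPM for miR-202-5p, and the second Ago413-/- spermatocyte library is lowest for the 5p strand and highest for the 3p strand.

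The order of the group means for miR-202-5p was Ago413-/- round spermatids (11604 ± 2822 CPM, SD, n = 4), Ago413+/- spermatocytes (5191 ± 2621), Ago413+/- round spermatids (5084 ± 2294), Ago413+/+ spermatocytes (4738 ± 2422), Ago413+/+ round spermatids (4378 ± 2233) and Ago413-/- spermatocytes (4078 ± 3197). Only the step from the first group to the second, 6413 CPM, was larger than the pooled SD of the neighbours (2723 CPM). The 4 later steps were 107 to 359 CPM, and the neighbours overlapped in each.

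The 3p strand was ordered differently. Its level in spermatocytes was 284, 520.3, 324 and 152 CPM for Ago413+/+, then 204, 148, 119.9 and 773 CPM for Ago413+/-, and 840.2, 1964, 396 and 356 CPM for Ago413-/-. The fourth Ago413+/- library and the second Ago413-/- library were far above the others of their groups. In round spermatids it was 539, 654, 271 and 218 CPM for Ago413+/+, then 147, 222, 293 and 334 CPM for Ago413+/-, and 567, 379, 591 and 409 CPM for Ago413-/-. The Ago413-/- round spermatids lay within the range of Ago413+/+ and above all Ago413+/- libraries.

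The group means of miR-202-3p ran from 889 ± 749.6 CPM (SD, n = 4) in Ago413-/- spermatocytes through 486 ± 108 in Ago413-/- round spermatids, 420.4 ± 209.7 in Ago413+/+ round spermatids, 320.05 ± 152 in Ago413+/+ spermatocytes and 311 ± 309.998 in Ago413+/- spermatocytes to 249 ± 82.4 in Ago413+/- round spermatids. No neighbours in this order differed by more than their pooled SD, and all overlapped.

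In spermatocytes, loss of the Argonaute genes was compared with both other genotypes to ask whether either arm depends on them. miR-202-5p did not pass the test in any of the 3 comparisons. Its log2 fold change (edgeR quasi-likelihood fit on the counts of 12 libraries, Benjamini-Hochberg adjustment over 404 miRNAs) was -0.22 between Ago413-/- and Ago413+/+ (SE 0.54, 95% interval -1.37 to 0.93, adjusted p = 0.81). Between Ago413+/- and Ago413+/+ it was 0.18 (interval -0.96 to 1.33, adjusted p = 0.9998), and between Ago413-/- and Ago413+/- it was -0.40 (interval -1.55 to 0.75, adjusted p = 0.63). The last value was -0.003 without the first Ago413+/- library and -1.04 without the first Ago413-/- library. The interval of the first comparison leaves room for a fall of more than 1 log2 unit.

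miR-202-3p had a fitted log2 fold change of 1.48 between Ago413-/- and Ago413+/+ spermatocytes (SE 0.65, interval 0.09 to 2.87), which did not pass the test (edgeR, adjusted p = 0.17). Against Ago413+/- it was 1.51 (SE 0.66, edgeR adjusted p = 0.18), and between Ago413+/- and Ago413+/+ it was -0.03 (SE 0.64, edgeR adjusted p = 0.9998). The call rule, an adjusted p under 0.05 with a log2 change of at least 1, was met by 4.46% of the miRNAs tested between Ago413-/- and Ago413+/+, by 2.23% between Ago413-/- and Ago413+/-, and by 0% between Ago413+/- and Ago413+/+. In the last of these comparisons 13 of 404 miRNAs had an unadjusted p under 0.05 with edgeR, and DESeq2 made 0 calls. Neither arm of miR-202 was called in any of the 3.

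Single libraries weighed on the 3p values. Without the second Ago413-/- library the log2 change of miR-202-3p against Ago413+/+ was 0.72 (edgeR adjusted p = 0.53) and against Ago413+/- 0.73 (edgeR adjusted p = 0.49). Without the fourth Ago413+/- library the change against Ago413+/- was 2.45 (edgeR adjusted p = 0.02), which passes the threshold. With no filter on low counts both comparisons of Ago413-/- spermatocytes passed, at adjusted p = 0.044 against Ago413+/+ and 0.023 against Ago413+/- (edgeR).

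In round spermatids miR-202-5p was 2.89 times as high in Ago413-/- as in Ago413+/+, a fitted log2 difference of 1.53 (SE 0.37, n = 4 each), and 2.43 times as high as in Ago413+/-, a difference of 1.28 (SE 0.36). The 4 Ago413-/- libraries did not overlap either other genotype. The same held for 23.7% of the 426 miRNAs fitted against Ago413+/+ and for 23.2% against Ago413+/-, and since miR-202-5p was chosen with this contrast known, nothing is read from the count. Between Ago413+/- and Ago413+/+ its log2 difference was 0.25 (SE 0.36), the groups overlapped, and the value was -0.05 without the second Ago413+/- library. The comparisons share their Ago413-/- or Ago413+/+ libraries and are not independent of each other.

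The value for Ago413-/- against Ago413+/+ round spermatids was lower after a correction for base composition, and what underlies the GC trends was not tested. When the trend of each library on the GC content of the miRNAs was taken out, an alternative added after the data were seen, the log2 difference fell to 0.85. Against Ago413+/- it was 1.09. With each library left out in turn, the first difference lay between 1.25 and 1.77 and the second between 1.04 and 1.59.

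miR-202-3p, cut from the same hairpin, had a log2 difference of 0.34 (SE 0.36) between Ago413-/- and Ago413+/+ round spermatids with overlapping groups, and of -0.0051 without the fourth Ago413+/+ library. Against Ago413+/- the difference was 1.05 (SE 0.36) and the groups did not overlap, as was the case for 23.2% of the 426 miRNAs. Between Ago413+/- and Ago413+/+ it was -0.71 (SE 0.36), again with overlap.

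Within Ago413+/-, the genotype whose cell types were tested, neither arm passed. The log2 difference of round spermatids from spermatocytes was -0.03 for miR-202-5p (SE 0.48, interval -1.02 to 0.96, edgeR adjusted p = 0.99) and -0.31 for miR-202-3p (SE 0.55, interval -1.44 to 0.82, edgeR adjusted p = 0.99). The call rule was met by 0% of the 450 miRNAs in this comparison, where 15 had an unadjusted p under 0.05 with edgeR and DESeq2 made 0 calls. The size of the difference within Ago413+/+ was -0.11 (SE 0.48) for miR-202-5p and 0.39 (SE 0.54) for miR-202-3p. Within Ago413-/- it was 1.51 (SE 0.49) for miR-202-5p, without overlap, which was the case for 12.2% of the 450 miRNAs, and -0.86 (SE 0.55) for miR-202-3p. The value for miR-202-3p was -0.0024 without the second Ago413-/- spermatocyte library, and the value for miR-202-5p was then 1.32.

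Some marker miRNAs of other cells were also higher in Ago413-/- round spermatids. Of miRNAs typical of blood, vessels and mesenchyme, the call rule was met, all towards higher levels in Ago413-/- than in Ago413+/+, by 1 of 3 mesenchymal, 1 of 2 endothelial, 2 of 2 tested red blood cell and 2 of 3 white blood cell markers. Over all 426 miRNAs, 32 were called higher and 37 lower, 16.2% in all, with a median log2 change of 0.13. The called markers included miR-126a-3p of endothelium (log2 change 1.63, SE 0.42) and miR-199a-3p of mesenchyme (1.14, SE 0.28). Also called were miR-142a-5p of white blood cells (1.18, SE 0.31) and miR-451a of red blood cells (3.26, SE 1.02). Summed red blood cell markers stood at 4807 CPM in the fourth Ago413-/- library and at 103 to 612 CPM in the others of that group. miR-223-3p of myeloid cells was called too, but it was read only 0 to 7 times per Ago413+/+ library and 5 to 15 times per Ago413-/- library, so no fold is given. None of the 4 peritubular, 4 germ cell or 3 spermatogonial markers was called. The fitted changes of the 4 peritubular markers were all below 0, with a median of -0.94. Those of 3 of the 4 germ cell and 2 of the 3 spermatogonial markers were above 0. Among these, miR-449a-5p of germ cells (log2 change 0.98, edgeR adjusted p = 0.011) missed only the threshold on the size of the change. The same held for miR-21a-5p of the spermatogonial list (0.66, edgeR adjusted p = 0.031).

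Against Ago413+/- round spermatids, where miR-202-5p differed by 1.28 with the same Ago413-/- libraries, 1 of 3 mesenchymal and 1 of 2 endothelial markers were called higher, namely miR-199a-3p (log2 change 1.20, SE 0.28) and miR-126a-3p (2.01, SE 0.43). Of the 2 red blood cell markers tested, the 3 white blood cell, 4 peritubular, 4 germ cell and 3 spermatogonial markers, 0 were called there by edgeR. Among them miR-142a-3p had a fitted change of -0.44 (SE 0.42). Over all 426 miRNAs 22 were called higher and 31 lower, 12.4% in all.

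In summed level the endothelial markers ran from 511 to 1988 CPM in Ago413+/+ round spermatids and from 1949 to 5852 CPM in Ago413-/-. The white blood cell markers ran from 134 to 321 and from 370.3 to 532 CPM, the mesenchymal ones from 1726 to 3547 and from 3401 to 5346 CPM, and the red blood cell ones from 49.1 to 501 and from 103 to 4807 CPM. The peritubular markers ran from 1096 to 8773 and from 2078 to 3507 CPM. The germ cell markers, miR-34b-5p, both strands of miR-34c and miR-449a-5p, ran from 62757 to 114286 CPM in Ago413+/+ and from 73105 to 138377 CPM in Ago413-/-. No marker was at 0 over the groups compared. The part of these cells in the level of miR-202-5p was not tested.

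In spermatocytes, where miR-202-5p did not pass, none of the markers was called between Ago413-/- and Ago413+/+. The germ cell markers summed to 63905 to 119103 CPM in Ago413+/+ and to 20055 to 82703 CPM in Ago413-/- spermatocytes. Without the second Ago413-/- library the latter sum ran from 62922 to 82703 CPM. The median log2 difference of these markers, with all libraries, was -0.79 beside -0.05 over all 404 miRNAs.

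The balance of the arms was followed as the log2 ratio of miR-202-5p to miR-202-3p counts within each library, with 0.5 added to each count. In 23 of the libraries the 5p strand was the more abundant one, by 4.61 to 43.0 times. The exception was the second Ago413-/- spermatocyte library, in which 166 counts of miR-202-5p stood against 295 of miR-202-3p, so that the 3p strand made up 64.0% of both arms (exact 95% binomial interval 59.4% to 68.4%). Binomial intervals here cover counting error alone. In the other libraries this share was 2.27% to 17.8%, with the highest value in the fourth Ago413+/- spermatocyte library (15.9% to 19.9%).

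**Figure D2:**
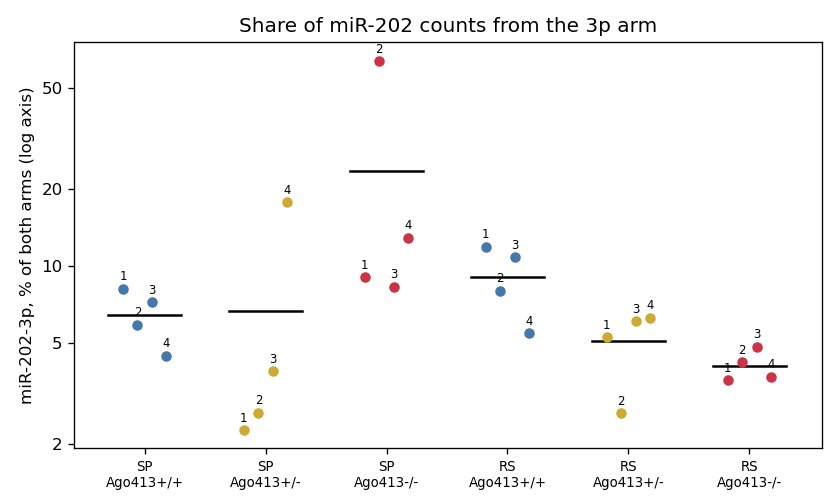
Share of miR-202 counts that came from the 3p arm, in percent on a log axis, one point per library with its replicate number, for spermatocytes (SP) and round spermatids (RS) of each genotype; black lines are arithmetic group means (n = 4). The second Ago413-/- spermatocyte library stands at 64.0% and the 4 Ago413-/- round spermatid libraries between 3.55% and 4.83%.

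The mean log2 arm ratio was 3.90 ± 0.40 (SD, n = 4) in Ago413+/+ spermatocytes, 4.36 ± 1.48 in Ago413+/- and 2.18 ± 2.03 in Ago413-/-. All 4 Ago413-/- spermatocyte libraries lay below all 4 Ago413+/+ libraries, with -0.83 to 3.46 against 3.49 to 4.41. Arm ratios of other hairpins were not computed, so nothing is read from this narrow separation. The difference of -1.72 had an exact two-sided permutation p of 0.029, the smallest that 4 against 4 can give. Its adjusted p over the 4 arm comparisons tested was 0.11, so it did not pass. A lone comparison at that smallest p cannot pass this adjustment, so no conclusion is drawn from the failure. Without the second Ago413-/- library the difference was -0.72.

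Between Ago413-/- and Ago413+/- spermatocytes the arm ratio differed by -2.18 (exact permutation p = 0.11, adjusted p = 0.23). This was -1.18 without the second Ago413-/- library and -2.90 without the fourth Ago413+/- library. It differed by 0.46 between Ago413+/- and Ago413+/+ spermatocytes (exact permutation p = 0.60, adjusted p = 0.80), which was 0.11 without the first and 1.18 without the fourth Ago413+/- library. With a library left out, the exact test cannot give an unadjusted p under 0.05, so these values could not pass. Between round spermatids and spermatocytes of Ago413+/- it differed by -0.06 (exact permutation p = 0.97, adjusted p = 0.97).

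In round spermatids the mean log2 arm ratio was 3.39 ± 0.55 in Ago413+/+, 4.30 ± 0.61 in Ago413+/- and 4.57 ± 0.21 in Ago413-/- (SD, n = 4). The 3p share was 9.05% ± 2.91, 5.06% ± 1.67 and 4.06% ± 0.58 in the same order. The Ago413-/- libraries, at 4.30 to 4.76, lay above all Ago413+/+ libraries, at 2.89 to 4.11, and inside the range of Ago413+/-. How often other hairpins separate in this way was not computed, so nothing is read from it. The difference of 1.18 from Ago413+/+ was 0.63 with the GC trend of each library taken out. The direction was opposite to that in spermatocytes, where the ratio was lower in Ago413-/-, and the difference between the cell types was not tested because it uses the contrast known when miR-202 was chosen.

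The arms differ in GC content, and the arm ratio moved with the way each library weighted GC-rich miRNAs. For each library the slope of the log2 level of 371 other miRNAs on their GC content was taken, relative to the mean of all libraries. A positive slope means that GC-rich miRNAs were counted relatively more. Tests against this slope were not planned, and their permutations exchange the 12 spermatocyte libraries freely across the 3 genotypes. Over the 12 spermatocyte libraries the log2 arm ratio had a Pearson r of -0.85 with this slope (permutation p = 0.0015, adjusted p = 0.0044 over 3 relations) and a Spearman rho of -0.62 (permutation p = 0.035, adjusted p = 0.10). Without the 2 libraries of most extreme slope, the second Ago413-/- and the first Ago413+/-, r was -0.45, and without the former alone it was -0.64, so the relation rests in large part on these libraries. Round spermatids take no part in this test, since their miR-202-5p levels were known when miR-202 was chosen. As a description, r was -0.77 over the 12 round spermatid libraries and -0.78 over all 24, where it was -0.81 for deviations from the 6 group means.

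**Figure D3:**
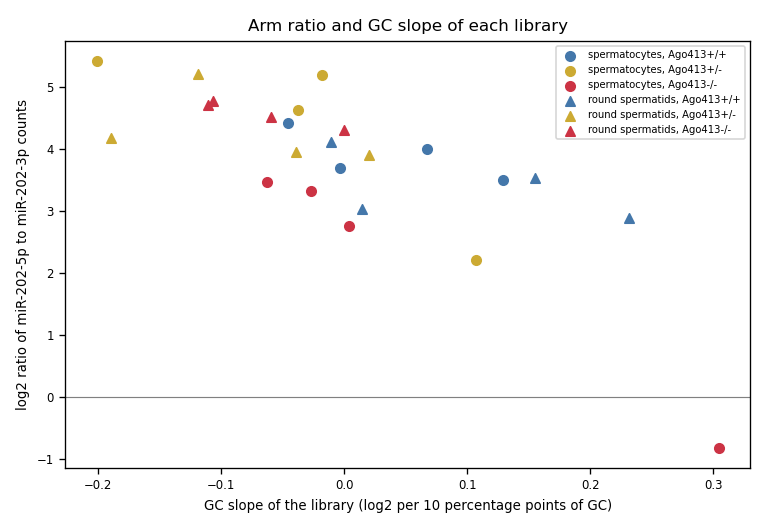
Log2 ratio of miR-202-5p to miR-202-3p counts (vertical axis) against the GC slope of the library in log2 units per 10 percentage points of GC (horizontal axis), one point per library, circles for spermatocytes and triangles for round spermatids. The points fall from upper left to lower right (r = -0.78), with the second Ago413-/- spermatocyte library at a slope of 0.30 and a ratio of -0.83.

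In spermatocytes the single arms had r of -0.68 (miR-202-5p, permutation p = 0.019, adjusted p = 0.019) and 0.69 (miR-202-3p, permutation p = 0.014, adjusted p = 0.019) with the slope, and these were -0.05 and 0.39 without the 2 libraries of extreme slope. Their Spearman rho was -0.50 (permutation p = 0.10, adjusted p = 0.10) and 0.50 (permutation p = 0.10, adjusted p = 0.10). Both relations thus rest on those libraries. Mean slopes were 0.10 in Ago413+/+ and -0.07 in Ago413-/- round spermatids. They were 0.04 in Ago413+/+ and 0.05 in Ago413-/- spermatocytes, the latter -0.03 without the second library. The part of base composition in the arm ratio was not tested beyond these values.

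Taken over all libraries the arms hardly followed each other, a result that leaned on a single library. Across 24 libraries log2 CPM of miR-202-5p and miR-202-3p had r = 0.04 (Spearman rho 0.29), given as a description without a test because all libraries share one scaling. Without the second Ago413-/- spermatocyte library r was 0.45. It was 0.63 over the 12 round spermatid libraries and -0.28 over the 12 spermatocyte libraries. Among the 449 other miRNAs, ordered by their r with miR-202-3p, its own partner strand took place 177. Without the second Ago413-/- spermatocyte library it took place 81.

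miR-34c-5p, abundant in meiotic and haploid germ cells, and miR-143-3p, a miRNA of smooth muscle and peritubular cells, served as references, and the correlations with them are descriptions. miR-34c-5p ranged from 16100 to 163412 CPM and was lowest in the second Ago413-/- spermatocyte library. miR-143-3p ranged from 1034 to 8325 CPM.

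miR-202-5p had r = 0.31 with miR-34c-5p (Spearman rho 0.03) and r = 0.18 with miR-143-3p (rho 0.30) over 24 libraries. The first value rested on a single library, since it was -0.04 without the second Ago413-/- spermatocyte library. It was 0.48 within spermatocytes and -0.19 within round spermatids.

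miR-202-3p had r = -0.81 with miR-34c-5p (rho -0.77) and 0.19 with miR-143-3p (rho 0.30). The inverse relation to miR-34c-5p was -0.90 within spermatocytes and -0.68 within round spermatids, -0.81 for deviations from the group means, and -0.71 without the second Ago413-/- spermatocyte library. All these levels are shares of the same library totals, of which miR-34c-5p alone is a large part.

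**Figure D4:**
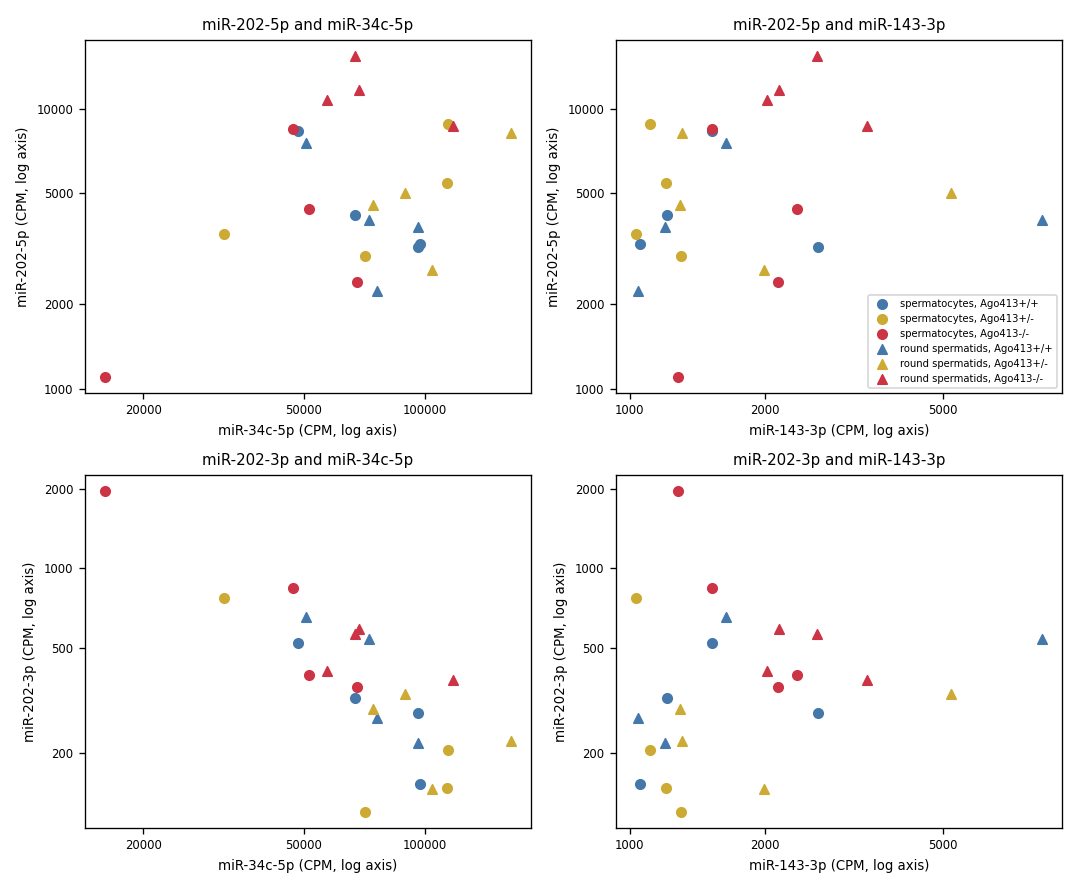
CPM of miR-202-5p (top) and miR-202-3p (bottom) against miR-34c-5p (left) and miR-143-3p (right), all on log axes, one point per library, circles for spermatocytes and triangles for round spermatids, coloured by genotype. miR-202-3p falls as miR-34c-5p rises (r = -0.81), whereas miR-202-5p shows no such slope (r = 0.31, and -0.04 without the lowest point).

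The miRNA whose levels most resembled miR-202-5p over the 24 libraries was miR-201-5p of the X chromosome (r = 0.93). Its mature strand is shown with its seed in capitals, and it differs from that of miR-202-5p given above.
mmu-miR-201-5p: uACUCAGUaaggcauuguucuu

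miR-201-5p kept the first place for deviations from group means (r = 0.91), without the second Ago413-/- spermatocyte library (0.91) and with GC trends removed (0.94). It ranged from 73.2 to 1498 CPM, with a mean of 1197 ± 370.2 CPM (SD, n = 4) in Ago413-/- and 536 ± 203 CPM in Ago413+/+ round spermatids. The next in order were miR-34a-5p (r = 0.87), a p53 target, miR-463-5p (0.86), also of the X chromosome, and the mesenchymal miR-199a-3p and miR-199b-3p (both 0.84), which have the same mature sequence and share reads. miR-138-5p (0.82), miR-101a-3p (0.82), miR-29b-3p (0.81), miR-203-3p (0.79) and miR-107-3p (0.78) completed the 10. After subtraction of group means, miR-878-3p (0.86) joined the first 5.

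Of the 10, 2 lie on the X chromosome (20%), near the share of 18% among the 372 of 449 miRNAs with a RefSeq position. The least similar were miR-3074-5p (r = -0.81), miR-375-3p (-0.78), miR-34b-3p (-0.74), miR-25-5p (-0.74) and miR-674-3p (-0.73). Of these, miR-34b-3p is the partner strand of the germ cell marker miR-34b-5p and was not in the marker lists. It ranged from 8673 to 31952.5 CPM, and its r was -0.74 also without the second Ago413-/- spermatocyte library. Its relation to miR-202-5p thus differed from that of the reference miR-34c-5p. The 10 most similar had a median GC content of 40.9% (31.8% to 56.5%), and the 4 of the 5 least similar for which a sequence was found 52.3%, beside 46.6% among all compared. Over the 372 miRNAs with a sequence, likeness to miR-202-5p was only weakly related to GC content (r = -0.19).

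miR-202-3p was most like let-7b-5p (r = 0.95), let-7e-5p (0.94) and let-7c-5p (0.94), followed by miR-129-5p (0.92) and miR-760-3p (0.91). The 3 let-7 members held the first 3 places also for deviations from group means (0.95, 0.94 and 0.92), without the second Ago413-/- spermatocyte library (0.93, 0.91 and 0.91) and with GC trends removed (0.93, 0.93 and 0.92). In that library let-7b-5p stood at 18510.1 CPM, against 801 to 8015 CPM in the other 23.

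**Figure D5:**
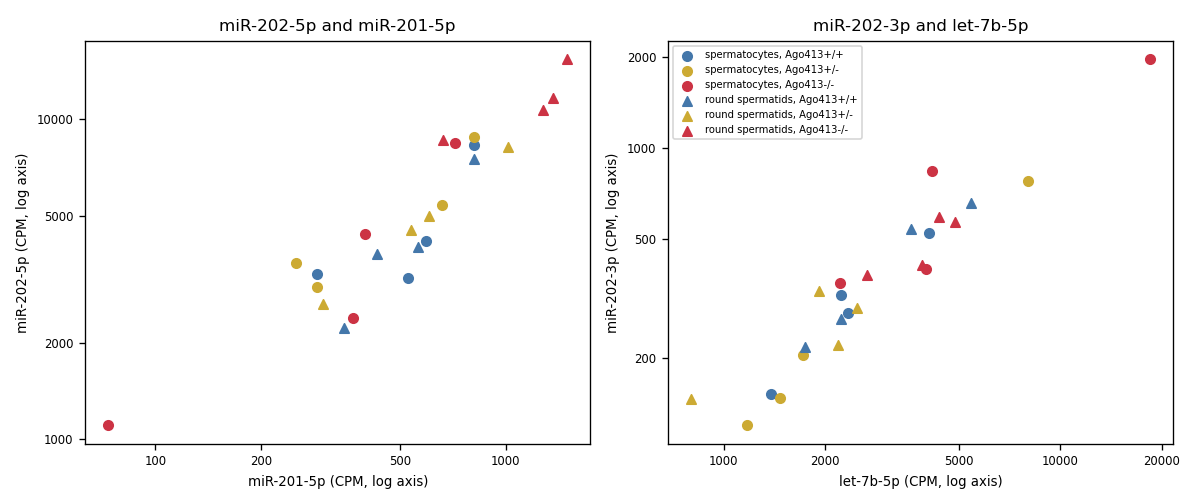
CPM of miR-202-5p against miR-201-5p (left) and of miR-202-3p against let-7b-5p (right), on log axes, one point per library, circles for spermatocytes and triangles for round spermatids, coloured by genotype. Both pairs rise together over the libraries (r = 0.93 and 0.95), and the second Ago413-/- spermatocyte library is the lowest point on the left and the highest on the right.

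The let-7 family as a whole was less uniform. Of its 10 members with enough counts, 9 had a positive r with miR-202-3p, with a median of 0.73, beside -0.11 over all 449 miRNAs, and let-7g-5p had -0.37. With miR-202-5p their median r was 0.10, beside 0.12 over all. The family holds abundant let-7 guide strands that restrain growth and stem cell genes, and its sum ran from 88596 to 134569 CPM in Ago413+/+ and from 122541 to 230777 CPM in Ago413-/- spermatocytes. Without the second library the Ago413-/- sum reached 140578 CPM. None of the 10 was called between these groups or between Ago413-/- and Ago413+/+ round spermatids. Their median log2 difference was 0.82 in spermatocytes, beside -0.05 over all, and 0.49 in round spermatids, beside 0.13 over all. Between Ago413-/- and Ago413+/- round spermatids, where miR-202-3p differed by 1.05, 4 of the 10 were called higher, namely let-7b-5p (log2 change 1.18, SE 0.37), let-7c-5p (1.21, SE 0.27), let-7e-5p (1.23, SE 0.30) and miR-98-5p (1.18, SE 0.32). Over all 426 miRNAs of that comparison 22 were called higher and 31 lower, 12.4% in all. All 10 had a fitted change above 0 there, with a median of 0.86.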

How the data were processed

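Small RNA libraries (NEBNext kit, 100 ng of RNA each) were made by the authors, who trimmed reads with Trim Galore and counted them against the mature miRNAs of miRBase with miRDeep2. The deposited table holds raw counts for 1978 miRNAs in 24 libraries, with no molecular identifiers, and multi-mapping of near-identical miRNAs can share reads. Groups and replicates were taken from the labels, and nothing says that libraries of one group came from separate pools of mice beyond their labels, so p-values measure the spread between these libraries. Replicates of a group differed by more than counting noise in all 36 pairs (chi-square over degrees of freedom of at least 13.0). The authors' summing by seed family was not used.

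The members, marker lists and comparisons were chosen with earlier results of these data known. Counts were fitted with edgeR 4.0.16 (R 4.3.3) by quasi-likelihood, TMM scaling and a filter that kept miRNAs with a count of 10 or more in 3 or more libraries, per cell type (404 miRNAs in spermatocytes, 426 in round spermatids) or over all 24 libraries (450, for cell types and CPM). Simulated counts with known changes were used to test the fit. Calls needed an adjusted p under 0.05 and a log2 change of at least 1, and fold changes come from the fit. Arm ratios were compared by exact two-sided permutation. Correlations used log2 CPM with a prior count of 2. Named miRNAs were the members, both references, the 10 highest and 5 lowest in r with miR-202-5p, the 5 highest after subtracting group means, the 5 highest with miR-202-3p, the let-7 guide strands and the marker lists. Alternatives comprised DESeq2 1.42.0, other scalings and filters, the 2 groups alone, replicate terms, leaving out each library and removal of GC trends (loess, span 0.75). Sequences came from RefSeq (1679 names matched), folded with RNAfold 2.7.2.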

Additional observations from a re-analysis of the deposited data

Results flagged for a closer look

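Dixon's test for a library far from its group was run on miR-202-5p CPM, miR-202-3p CPM and the log2 arm ratio in 6 groups, 18 groups of 4 in all, of which chance marks about 0.9. It marked 2. In Ago413+/- spermatocytes the fourth library had 773 CPM of miR-202-3p, against 119.9 to 204 CPM in the other 3, a gap of 0.87 of the whole range. In Ago413-/- spermatocytes the second library had a log2 arm ratio of -0.83, against 2.75 to 3.46 in the other 3, a gap of 0.83 of the range. Both libraries had let-7b-5p levels (8015 and 18510.1 CPM) above those of all other libraries and miR-34c-5p levels (31645 and 16100 CPM) below them. The cause was not tested.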

How the results depend on the processing

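Over 446 repeats of the differences, arm ratios and correlations under other settings, the sign turned in 37, of which 27 concerned tested differences, 6 untested differences and 4 correlations with a reference. The differences whose sign turned were at most 0.46 in size as reported. A tested miR-202-3p difference passed the threshold in 3 repeats where the reported fit did not.

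Without a filter on low counts miR-202-3p passed in Ago413-/- against Ago413+/+ spermatocytes (log2 change 1.35) and against Ago413+/- (1.51). Calls over all miRNAs then numbered 55 and 40, against 18 and 9 with the filter and 61 and 57 with DESeq2. Without the filter 4 calls were made between Ago413+/- and Ago413+/+ spermatocytes and 5 between the cell types of Ago413+/-, against 0 in each.

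Removing GC trends gave log2 differences of 0.85 for miR-202-5p in Ago413-/- against Ago413+/+ round spermatids and 0.63 for the arm ratio there. For miR-202-5p it gave -0.12 in Ago413+/- against Ago413+/+ spermatocytes and 0.13 between the cell types of Ago413+/-, where the arm ratio became 0.018. A term for replicates 1 and 2 against 3 and 4 gave 0.14 for miR-202-3p between Ago413+/- and Ago413+/+ spermatocytes and 0.061 for miR-202-5p between the cell types of Ago413+/-. As a percentage of both arms, miR-202-3p differed by 0.23 points between Ago413+/- and Ago413+/+ spermatocytes and by -1.59 points between the cell types of Ago413+/-. The r of miR-202-5p with miR-34c-5p was -0.19 in round spermatids and -0.14 without the 2 libraries farthest from the median of miR-34c-5p.

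Same-numbered libraries of 2 groups did not deviate together as a rule (r from -0.39 to 0.42 in 60 pairs, above 0.1 in 17). In none of 15 pairs of groups was r above 0.1 for all 4 numbers, or each library most like its own number. Between the cell types of one genotype, r for replicates 1 to 4 was 0.35, 0.37, -0.16 and 0.33 in Ago413+/+. It was 0.024, 0.42, 0.029 and 0.23 in Ago413+/-, and 0.28, -0.059, -0.15 and 0.096 in Ago413-/-. Most of these pairs carry consecutive library numbers, but the sample titles do not say whether they share a pool of mice. The main fits treated the libraries as unpaired. With a replicate block, miR-202-5p differed by 0.030 and miR-202-3p by 0.032 between the cell types of Ago413+/-, and no call changed.

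Leaving out one library at a time, miR-202-5p ranged from -0.97 to 0.15 (Ago413-/- against Ago413+/+ spermatocytes), -0.29 to 0.50 (Ago413+/- against Ago413+/+ spermatocytes) and -0.41 to 0.35 (cell types of Ago413+/-), -1.04 to -0.0030 (Ago413-/- against Ago413+/- spermatocytes), -0.05 to 0.63 (Ago413+/- against Ago413+/+ round spermatids), -0.54 to 0.26 (cell types of Ago413+/+) and 1.32 to 2.14 (cell types of Ago413-/-). miR-202-3p ranged from -0.94 to 0.29 (Ago413+/- against Ago413+/+ spermatocytes), 0.73 to 2.45 (Ago413-/- against Ago413+/- spermatocytes), -0.59 to 0.63 (cell types of Ago413+/-), 0.72 to 1.73 (Ago413-/- against Ago413+/+ spermatocytes), -0.0051 to 0.48 (Ago413-/- against Ago413+/+ round spermatids), -0.97 to -0.42 (Ago413+/- against Ago413+/+ round spermatids), 0.058 to 0.68 (cell types of Ago413+/+) and -1.11 to -0.0024 (cell types of Ago413-/-). The arm ratio ranged from -0.78 to 0.29 (cell types of Ago413+/-), 0.13 to 0.57 (Ago413-/- against Ago413+/- round spermatids), -0.75 to -0.33 (cell types of Ago413+/+) and 1.39 to 2.82 (cell types of Ago413-/-). The causes were not tested. Groups of 4 cannot give an exact p below 0.029.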
